A study of Mus musculus with 4 samples.

Results

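The Flna locus is a stretch of the mouse X chromosome around Flna, the gene of filamin A, a protein that crosslinks actin filaments. It holds 2 sites that the study lists as replication origins (ORIs) at promoters, one at the CpG island promoter and one at an alternative promoter further upstream. Its members are the tiled 60-base probes of 66 fragments in 1 run of the array design's numbering, that is 204 of the 19805 probes found on all 4 arrays. They run from about 46.1 kb on the gene side of the CpG island promoter site to the promoters of Dnase1l1 and Taz on the other side. Fragments are the pieces of sequence from which probes were designed, numbered along the chromosome. A probe is named here by its fragment and by the offset in its name, which falls as the coordinate rises.

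The cells were of the mouse embryonic stem (ES) line PGK12.1, labelled as female pluripotent cells and left untreated. Short nascent DNA strands, treated with λ-exonuclease, were hybridised together with total genomic DNA of the same cells. There were 2 arrays for strands of 300–800 nt, with nascent DNA in Cy3, and 2 arrays for strands of 100–600 nt, with nascent DNA in Cy5. Size fraction, dye, array print, software version and scan all changed together, so their effects on a difference between the fractions cannot be told apart. A single cell line was used, and these arrays measured no gene expression.

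DNA replication starts at ORIs, and each start leaves short strands that begin with an RNA primer. The primer protects a new strand from λ-exonuclease, whereas broken genomic DNA is digested, so DNA close to an ORI becomes relatively abundant in a preparation of short strands. In mammals ORIs are often found at CpG island promoters. Flna is transcribed toward lower coordinates, so its body lies on the low side of the promoters and Emd, Rpl10, Dnase1l1 and Taz follow on the high side. Emd codes for emerin of the inner nuclear membrane and Rpl10 for a protein of the large ribosomal subunit. Dnase1l1 codes for a DNase I-like protein and Taz for tafazzin, which remodels cardiolipin.

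The sequences on which the 2 promoter sites rest are shown first, as the probes were printed on the arrays, which is the plus strand and so opposite to Flna. CpG dinucleotides are in capitals. The CpG island promoter probe lies at X:68906542-68906601 and the alternative promoter probe at X:68910733-68910792 of the Ensembl mouse build 35 used for the design, 4191 bp apart. The start probe is the one that overlaps the RefSeq start of Flna. The valley probe has the lowest mean of the 300–800 nt fraction between the 2 sites after loess. The last is the highest probe of the locus in that fraction.
CpG island promoter probe (offset 700 of its fragment): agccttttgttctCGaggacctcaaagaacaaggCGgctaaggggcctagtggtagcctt
Start probe (offset 100 of the same fragment): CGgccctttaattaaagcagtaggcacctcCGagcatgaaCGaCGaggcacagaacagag
Valley probe (fragment 67469, offset 400): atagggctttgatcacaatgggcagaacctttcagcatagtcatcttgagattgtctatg
Alternative promoter probe (offset 400 of its fragment): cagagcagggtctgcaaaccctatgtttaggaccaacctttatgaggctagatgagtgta
Highest probe (fragment 67478, offset 80): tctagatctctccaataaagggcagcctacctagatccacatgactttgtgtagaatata
The CpG island promoter probe holds 2 CpG dinucleotides and the start probe 4, whereas the other 3 hold none.

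The start probe was placed by matching probe sequences to the RefSeq promoter windows, each of which runs from 250 bases before a gene's start to 50 after it. In the window of Flna the start probe overlaps the gene's start. It lies 600 bp upstream of the listed CpG island promoter probe, so that listed probe lies inside the transcribed unit. Whether it is exonic or intronic was not analysed here. The window, at X:74246485-74246784 on the minus strand of GRCm38.p6, is given in the direction of the gene because it holds the probes nearest to the start. Capitals mark the 120 bases covered by 2 probes of the locus, the upstream window probe first and the start probe last.
Flna promoter window: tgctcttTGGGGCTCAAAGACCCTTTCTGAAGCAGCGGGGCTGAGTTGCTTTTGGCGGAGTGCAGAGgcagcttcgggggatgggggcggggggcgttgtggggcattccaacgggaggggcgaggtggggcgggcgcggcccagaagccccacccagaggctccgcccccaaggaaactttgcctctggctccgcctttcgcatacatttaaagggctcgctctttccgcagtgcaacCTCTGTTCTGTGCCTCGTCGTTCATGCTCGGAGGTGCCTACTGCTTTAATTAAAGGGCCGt
It has a G+C content of 62% and 19 CpG dinucleotides, as many or more than 73.5% of the 32851 RefSeq windows. The letters GGGCGG occur in it 2 times on the gene's strand and 1 time on the opposite strand, and 35.7% of all windows hold them on either strand. The letters TATAAA are not in this window on either strand, and 13.6% of all windows hold them.

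The 2 fractions were not measured with the same precision. Both 300–800 nt arrays share a slide, and they differed from each other by less than repeated spots of 1 probe did (a variance ratio of 0.685 over all probes), so they counted as 1 sample in limma, although the study describes biological replicates, and their SD below is one between arrays. Limma is a linear model fitted to all probes at once. At the locus their log2 ratios had an SD between arrays of 0.08 over 204 probes, and those of 100–600 nt strands 0.32 over 152 probes. On the 100–600 nt arrays the software marked 29 and 34 of 216 locus spots, which left 50 probes with a value on 1 array and 2 with none. The median raw nascent signal at the locus was 468 and 1071 on these arrays and 532.5 and 530 on those of 300–800 nt strands. P-values rest on the spread between these arrays, which may be technical. With 1 residual degree of freedom per probe, limma draws each probe's variance toward that of all probes (18.6 prior degrees of freedom). SEs and p-values thus reflect mainly the spread shared by all probes, and little of a probe's own.

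Each value below is the log2 ratio of nascent over genomic signal after loess normalisation within the array, with 0 as the middle of the array. For 300–800 nt strands the CpG island promoter probe had log2 ratios of 1.14 and 1.20 on the 2 arrays, a mean of 1.17 ± 0.04 (SD, n = 2). The alternative promoter probe had log2 ratios of 1.41 and 1.54, a mean of 1.47 ± 0.10 (SD, n = 2). The alternative site was the higher on both arrays, by 0.26 and 0.34 on the log2 scale. For 100–600 nt strands the CpG island promoter probe had log2 ratios of 0.62 and 1.80, a mean of 1.21 ± 0.84 (SD, n = 2). There the alternative promoter probe had 1.27 and 0.64, a mean of 0.96 ± 0.44 (SD, n = 2). Here the order of the 2 sites changed from array to array, with the alternative site 0.65 above the CpG island site on replicate 1 and a difference of -1.16 on replicate 2. Both sites were thus above 0 on all 4 arrays, and their order was the same only on the arrays of 300–800 nt strands. The study listed these sites from arrays of this series, so their height is a description and was not tested in the 300–800 nt fraction.

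The CpG island promoter probe was among the dimmest of the locus. Its raw genomic signal was 89 and 105 on the arrays of 100–600 nt strands, the lowest of all locus spots on both, and 158 and 167 on those of 300–800 nt strands. Over all locus spots the median raw genomic signal was 181 and 339 in the 100–600 nt fraction and 246 and 262 in the 300–800 nt fraction. The alternative promoter probe was brighter in the 100–600 nt fraction, with raw genomic signals of 133 and 243 and nascent signals of 614.5 and 861.5 against 196 and 369. In the 300–800 nt fraction its raw genomic signals were 165 and 165.25, near those of the CpG island promoter probe. The part of the low signal in the value of the CpG island promoter probe was not tested.

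The 0.95 quantile of all probes with a value, above which a probe is called positive here, was 1.16 for 300–800 nt strands and 0.64 for 100–600 nt strands. The CpG island promoter probe stood at 1.170 against a threshold of 1.164 in the 300–800 nt fraction, just inside it. With median centring in place of loess it was at 1.08 against 1.34, and after the normexp background correction at 0.70 against 0.82, so it was no longer positive in either case. A lowess on the G+C content also put it below, at 1.12 against 1.15. The start probe had log2 ratios of 1.32 and 1.27 in the 300–800 nt fraction, a mean of 1.29 ± 0.03 (SD, n = 2), and stayed above the threshold under these 3 alternatives, at 1.91, 1.21 and 1.24. So did the alternative promoter probe, at 1.62, 1.30 and 1.51. In the CpG island promoter fragment, then, the start probe and not the listed probe stayed above the threshold under all 3.

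The fragment of the CpG island promoter was uneven. Its probe 160 bp further into the gene than the listed one had log2 ratios of -0.07 and -0.26 in the 300–800 nt fraction, and that 427 bp upstream of the listed one, with 6 CpG dinucleotides, had 0.56 and 0.59. This last probe had 1.02 and 0.83 in the 100–600 nt fraction. The upstream window probe, 232 bp beyond the start probe, had 1.10 and 1.02 in the 300–800 nt fraction but -0.06 and 0.02 in the 100–600 nt fraction. The start probe had a value on only 1 array of 100–600 nt strands, 0.48, since the software marked its spot on the other. Of these 5 probes the start probe was thus the highest for 300–800 nt strands. In the other fraction the listed probe had the highest mean only through replicate 2, and on replicate 1, with median centring and with normexp the probe with 6 CpG dinucleotides was above it.

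Between the 2 listed promoter probes lie 11 probes. Their median log2 ratio was 0.58 ± 0.02 (SD, n = 2) in the 300–800 nt fraction and 0.35 ± 0.15 (SD, n = 2) in the 100–600 nt fraction. The mean of both promoter probes exceeded this median by 0.71 and 0.78 on the arrays of 300–800 nt strands, and by 0.71 and 0.78 on those of 100–600 nt strands. On each of the 4 arrays the sites stood above the median of the stretch that separates them. This is a description, since the study listed the sites from arrays of this series. With normexp the CpG island promoter probe was under that median in the 100–600 nt fraction, at 0.35 against 0.39. By the mean of both arrays, the lowest point in the 300–800 nt fraction was the valley probe, with -0.17 and -0.08. It lies about 2.3 kb upstream of the CpG island promoter probe. On replicate 2 alone another probe was lower, at -0.13. With normexp and after the G+C lowess the lowest was offset 230 of fragment 67470, at -0.086 and -0.39. For 100–600 nt strands the valley probe had 0.44 and 0.73, and the lowest was instead offset 290 of fragment 67468, with -0.01 and -0.43. The highest between the sites was the start probe for 300–800 nt strands and offset 230 of fragment 67470, with 1.00 and 1.41, for 100–600 nt strands.

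Higher ratios were not limited to the 2 listed probes within this interval. Offset 670 of fragment 67470, about 0.9 kb before the alternative promoter probe, had 1.10 and 1.15 in the 300–800 nt fraction and 0.39 and 1.44 in the 100–600 nt fraction. Next to it, offset 490 had 0.93 and 0.92 in the 300–800 nt fraction, and offset 230, the probe after that, fell to -0.10 and -0.08. On the other side of the alternative promoter probe, 210 bp upstream, the next probe had 0.48 and 0.40 in the 300–800 nt fraction and 0.21 and 0.54 in the 100–600 nt fraction.

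**Figure D1:**
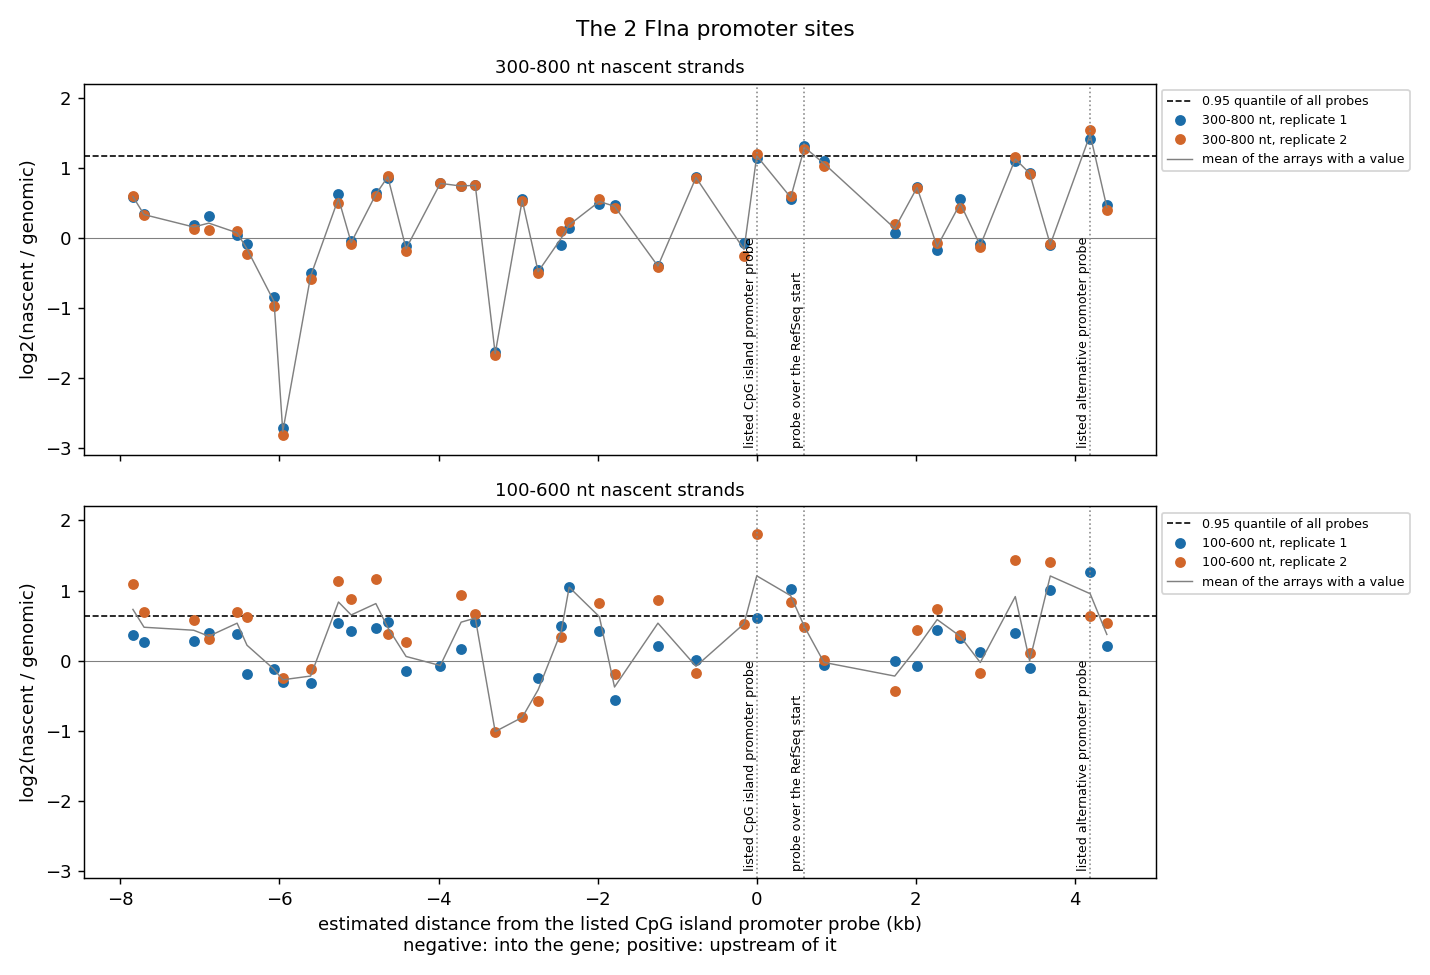
Log2 ratio of nascent over genomic DNA (y axis) against the estimated distance in kb from the listed CpG island promoter probe (x axis), for strands of 300–800 nt (top) and 100–600 nt (bottom). Points are single arrays, the grey line joins the means, the dashed line is the 0.95 quantile of all probes, and dotted lines mark the probes named on them. The alternative promoter probe reaches 1.41 and 1.54 in the top panel, and the deepest point of the gene side, at -2.71 and -2.81, is 6.0 kb into the gene.

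In limma, with the mean of both 300–800 nt arrays counted as 1 sample, 15478 probes had a value in all samples, among them 152 of the locus. The probes of 100–600 nt strands were tested there against genomic DNA, that is against a log2 ratio of 0. After loess, 0 stands for the level of probes of the same brightness on the array, not for equal amounts of nascent and genomic DNA. Of all probes tested 3.79% lay above 0 at an adjusted p under 0.05, and of the 152 at the locus 23 did. Of all probes 9.58% lay below 0, and of those at the locus 7. Both listed promoter sites were among the 23, the CpG island promoter probe at 1.21 (SE 0.25, adjusted p 0.0038 in limma) and the alternative promoter probe at 0.96 (SE 0.23, adjusted p 0.0092 in limma). The former had 0.62 and 1.80 on its 2 arrays, so its SE, pooled over probes, understates its own spread. The study also judged its listed sites on all 4 arrays, and both were chosen with earlier results of these data known. Their adjusted p-values are therefore no independent evidence. The probe with 6 CpG dinucleotides beside the start had an adjusted p of 0.0082 in limma. Between the sites, offsets 670 and 230 of fragment 67470 also passed, with adjusted p of 0.019 and 0.0014 in limma. After the normexp correction the 23 fell to 5, which were among the 23, and 0.368% of all probes were called. The CpG island promoter probe then fell to 0.35 (adjusted p 0.42 in limma), the alternative promoter probe was at 1.01 (adjusted p 0.053 in limma), and the probe with 6 CpG dinucleotides kept 0.045. With median centring 17 were called, 13 of them shared, against 2.31% of all probes. The CpG island promoter probe then had an adjusted p of 0.075 in limma. The 2 arrays of this fraction limit the precision, and the lone 300–800 nt sample is assumed to vary as they do.

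The study also lists an exon site in Flna, at offset 1490 of its fragment and X:68890938-68890997 of build 35, which lies 15.6 kb into the gene from the CpG island promoter probe. It had log2 ratios of 1.14 and 1.13 in the 300–800 nt fraction and of 0.22 and -0.17 in the 100–600 nt fraction. It was bright, with raw nascent signals of 6889.25 and 6713 on the arrays of 300–800 nt strands, and its value depended on the normalisation. Loess gave a mean of 1.13, under the threshold of 1.16, and median centring gave 2.28 against a threshold of 1.34. The difference between the fractions at this probe was 1.11 (SE 0.38) with an adjusted p of 0.084 in limma, which missed the threshold. With median centring the means were 2.28 and 0.18, a wider gap.

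In the same fragment the fractions were high at different probes. Offset 30, nearer to the promoters than the exon probe, had 1.40 and 1.23 in the 100–600 nt fraction, the highest mean of the locus there at 1.32 (adjusted p 0.00065 in limma). In the 300–800 nt fraction it had 0.31 and 0.35. With median centring its mean in the 100–600 nt fraction was 0.11 (adjusted p 0.85 in limma), and the 300–800 nt fraction was then the higher by 2.01 (adjusted p 0.0010 in limma). Offset 530 had 0.92 and 0.76 in the 100–600 nt fraction against 0.26 and 0.36 in the 300–800 nt fraction.

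From the exon probe to the CpG island promoter probe lie 52 probes within the gene. In the 300–800 nt fraction 2 of these 52 were above the 0.95 quantile, against 5% of all probes. For 100–600 nt strands 18 of 52 were, a share of 34.6% against 5% of all probes. Some of the 18 had a value on 1 array only. Among these was offset 880 of fragment 67460, at 0.68 on replicate 2, where that array's own quantile was 0.80. On single arrays, each with its own quantile, 6 of 44 probes with a value were above it on replicate 1 of the 100–600 nt strands and 15 of 44 on replicate 2. The share was thus over the background on both, but replicate 2 carried most of it. The median log2 ratio of these probes was 0.39 on replicate 1 and 0.64 on replicate 2 of the 100–600 nt fraction, and 0.32 and 0.35 on the 300–800 nt arrays. With median centring 16 of the 52 were above the quantile of 100–600 nt strands, 12 of them among the 18, and after the G+C lowess 13 were, all among the 18. Of the 36 probes tested here 9 lay above a log2 ratio of 0 in limma and 0 lay below it at an adjusted p under 0.05. Of all probes tested 3.79% lay above it and 9.58% below. This stretch was set after its values were seen.

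On both outer sides the share was lower in the 100–600 nt fraction. Beyond the exon probe, away from the promoters, 9 of 64 probes were above the quantile of 100–600 nt strands and 4 of 64 above that of 300–800 nt strands. Beyond the alternative promoter fragment, toward Emd and Taz, 8 of 71 probes with a value and 5 of 73 were. Between the promoter probes 3 of 11 and 1 of 11 were. In all, 40 of 202 locus probes were above the quantile of 100–600 nt strands (19.8%) and 14 of 204 above that of 300–800 nt strands (6.86%), against 5% of all probes in each. Without replicate 2 of the 100–600 nt strands the 40 fell to 16.

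**Figure D2:**
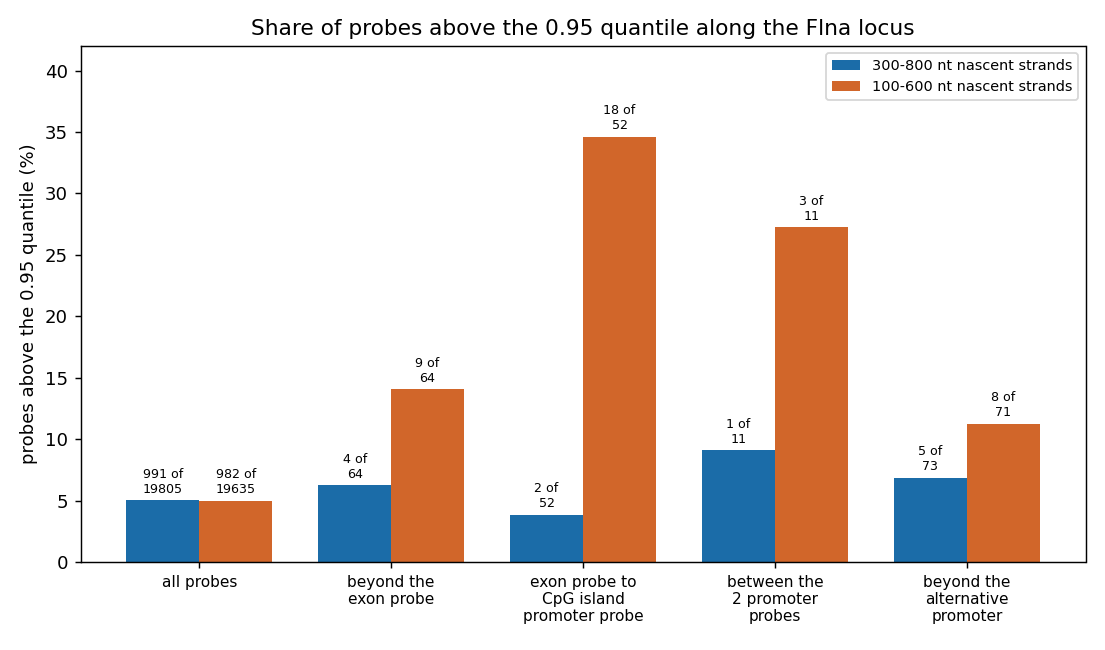
Share of probes above the 0.95 quantile of their fraction in percent (y axis) for all probes and for 4 stretches of the locus (x axis), with the numbers of probes over each bar. The 18 of 52 probes of 100–600 nt strands between the exon probe and the CpG island promoter probe make the tallest bar, and 2 of 52 were above the quantile in 300–800 nt strands.

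Base composition moved with these shares. The 52 probes inside the gene had a median G+C content of 48.3%, those of the whole locus 45% and those of all arrays 41.7%. Of all probes with a G+C content of 50% or more 15.9% were above the quantile of 100–600 nt strands, against 2.28% of those under 40%. In the locus the same classes held 22 of 63 and 1 of 26. The share of locus probes was the larger in each class, such as 9 of 58 against 5.44% of all probes between 45 and 50%. Under 40% it rested on 1 probe. The part of base composition in these shares was not tested. In the 300–800 nt fraction 5 of 63 locus probes with a G+C content of 50% or more were positive against 7.15% of all such probes. Across the 204 locus probes Pearson's r of G+C content with the log2 ratio was 0.21 over 202 probes for 100–600 nt strands and 0.0024 for 300–800 nt strands. These probes share arrays and neighbouring sequence. After the G+C lowess 31 of the 202 locus probes were above the quantile of 100–600 nt strands in place of 40.

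The locus had 11 probes with 3 or more CpG dinucleotides. All 11 had a mean above 0 in the 300–800 nt fraction, with a median of 0.53, where 444 of 680 such probes of all arrays did and their median was 0.28. On the 100–600 nt arrays 8 of the 11 were above 0, a share of 72.7% against 73.7% of all such probes. Above the 300–800 nt quantile were 3 of the 11, where 86 of the 680 were. These 3 were the start probe, offset 1120 of fragment 67483 and offset 2380 of fragment 67509. The alternative promoter probe and the highest probe of the locus hold no CpG dinucleotide.

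The highest ratios of 300–800 nt strands at the locus were not at the promoters of Flna. Offset 80 of fragment 67478, the single probe of a fragment between the alternative promoter and the RefSeq start of Emd, had 1.82 and 1.83, above 99.3% of all probes. On the 100–600 nt arrays it had 0.18 and 0.21. Offset 1260 of fragment 67462, 8.8 kb into the gene, had 1.72 and 1.65 in the 300–800 nt fraction with 0.56 and 1.10 in the 100–600 nt fraction. It was followed by offset 1160 of fragment 67501 with a mean of 1.56 and offset 10 of fragment 67461, 9.3 kb into the gene, also with 1.56. Among the 204 the alternative promoter probe ranked 5, the start probe 10 and the CpG island promoter probe 13. Between ranks 5 and 10 stood offset 200 of fragment 67452 (1.44), offset 290 of the first fragment of the locus (1.41), offset 2380 of fragment 67509 (1.35) and offset 2770 of fragment 67456 (1.34).

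ACME tests whether a window around a probe holds more positive probes than the array as a whole. In ACME, 1.97% of all probes were significant for 300–800 nt strands and 2.27% for 100–600 nt strands. At the locus 3 probes were for 300–800 nt strands, namely both listed promoter probes and offset 580 of fragment 67454, which had a mean of 1.17. The window of each promoter probe held 2 probes of which 1 was positive, so each call rests on the listed probe itself. When the chi-square test was exchanged for Fisher's exact test (one-sided), 0 of the 3 remained, as with a p under 0.001. For 100–600 nt strands 31 of 202 locus probes were significant, both listed promoter probes among them, and 14 of the 31 lay between the exon probe and the CpG island promoter probe. Without replicate 2 of that fraction the 31 fell to 9, and with the Fisher test to 3.

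In both fractions together 5 locus probes were above the quantile, of 202 with a value in both. They were both listed promoter probes, offset 1260 of fragment 67462, offset 290 of the first fragment and offset 2380 of fragment 67509, and 0.682% of all probes were above both. The last of these lies in the fragment that reaches into the promoter windows of Dnase1l1 and Taz. It had 1.12 and 1.31 on the 100–600 nt arrays and 1.37 and 1.33 on the 300–800 nt arrays, with an adjusted p of 0.0011 in limma in the 100–600 nt fraction. Across the locus the means of the fractions had a Pearson's r of 0.32 over 202 probes, against 0.36 over all probes, a description of probes that share arrays.

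**Figure D3:**
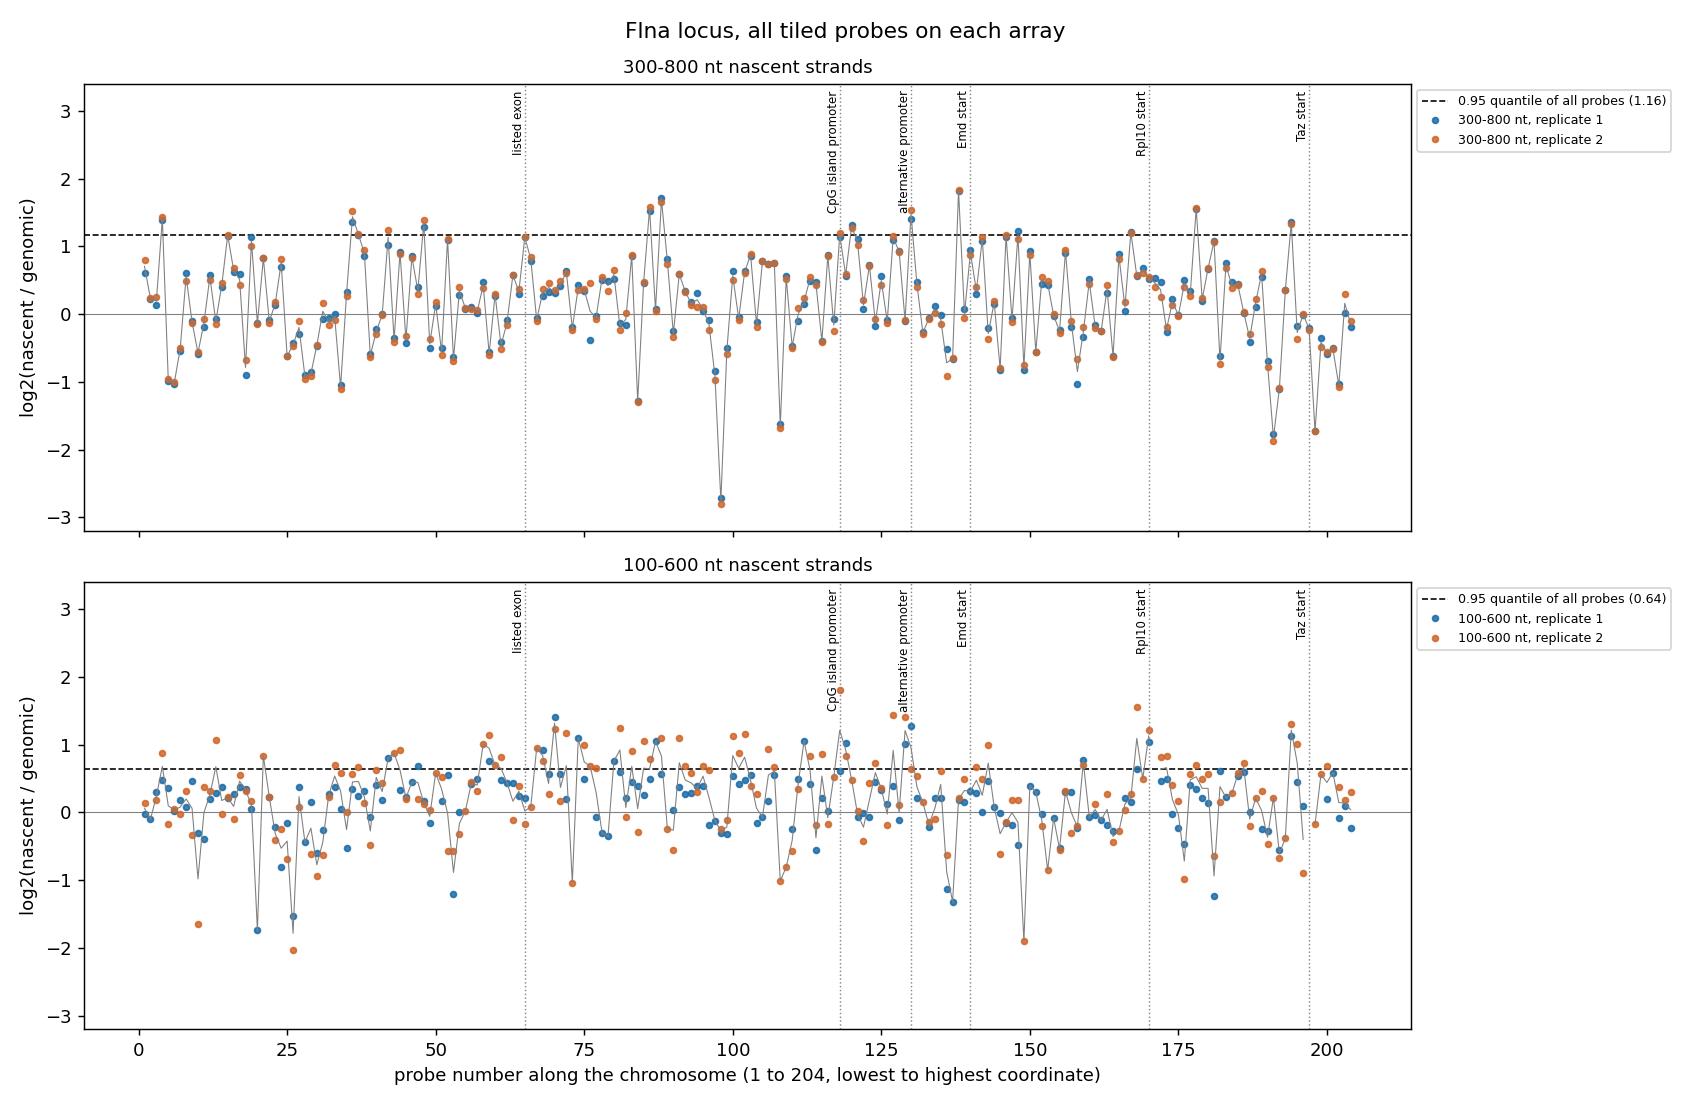
Log2 ratio of nascent over genomic DNA (y axis) of the 204 locus probes in chromosome order (x axis, probe number) for strands of 300–800 nt (top) and 100–600 nt (bottom). Points are single arrays, the grey line joins means, the dashed line is the 0.95 quantile (1.16 and 0.64) and dotted lines mark the listed probes and the starts of Emd, Rpl10 and Taz. In the top panel single high probes stand along the whole locus and the lowest reaches -2.81.

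Inside the RefSeq promoter windows of the neighbouring genes no probe reached the quantile for 300–800 nt strands. The probe over the RefSeq start of Emd, 8135 bp from the Flna start on GRCm38.p6, had 0.94 and 0.87 in the 300–800 nt fraction and 0.31 on the only 100–600 nt array with a value. The second probe in the window of Emd had 0.07 and -0.05 in the 300–800 nt fraction. In the window of Rpl10, 24121 bp from the Flna start, offset 210 of fragment 67497 had 0.52 and 0.55 in the 300–800 nt fraction and 1.04 and 1.22 in the 100–600 nt fraction (adjusted p 0.0020 in limma). The probe of the Dnase1l1 window had -0.02 and 0.01 and that of the Taz window -0.20 and -0.24 in the 300–800 nt fraction. Of the 7 probes inside RefSeq windows at the locus, 1 was above the quantile in each fraction, the Flna start probe in 300–800 nt strands and the Rpl10 probe in 100–600 nt strands. Elsewhere on the arrays 14 of 118 such probes, in the windows of 96 genes, were above it for 300–800 nt strands and 28 of 116 for 100–600 nt strands.

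The lowest ratios of 300–800 nt strands at the locus were within the gene and near Taz. Offset 4290 of fragment 67463, 6.0 kb into the gene, had -2.71 and -2.81 in the 300–800 nt fraction but -0.30 and -0.24 in the 100–600 nt fraction. With median centring the order of the fractions turned, to means of -1.08 and -1.77. Offset 1620 of the same fragment had -1.62 and -1.67 in the 300–800 nt fraction and -1.01 on the only 100–600 nt array with a value. Offsets 3180 and 1420 of fragment 67509 had means of -1.82 and -1.73 in the 300–800 nt fraction. Among 100–600 nt values the lowest measured on both arrays was offset 70 of fragment 67448, about 30.8 kb to the gene side of the CpG island promoter probe, with -1.53 and -2.03 (adjusted p 6.5e-05 in limma). The lowest of all there, offset 860 of fragment 67483 at -1.90, had a value on 1 array. So had offset 110 of fragment 67443 (-1.74), offset 60 of fragment 67477 (-1.32) and offset 1850 of fragment 67460 (-1.04).

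At the upper end of the 100–600 nt fraction several of the 10 highest probes were also measured once. These were offset 1420 of fragment 67460 (1.10), offset 690 of fragment 67463 (1.05), offset 1325 of fragment 67462 (1.05) and offset 340 of fragment 67456 (1.01). Offset 810 of fragment 67497, beside the Rpl10 window, had 0.64 and 1.55.

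Between the fractions, 4.82% of all probes tested were higher in 300–800 nt strands and 2.2% lower at an adjusted p under 0.05 in limma. At the locus 5 of 152 were higher and 5 lower, close to that background. None of the 3 listed Flna probes was among them. The difference, 300–800 nt minus 100–600 nt on the log2 scale, was -0.04 (SE 0.44, adjusted p 0.97 in limma) at the CpG island promoter probe and 0.52 (SE 0.39, adjusted p 0.45 in limma) at the alternative promoter probe, which does not show that the fractions were alike there.

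The largest of the 5 higher differences was at offset 480 of fragment 67501, between the RefSeq starts of Rpl10 and Taz. It had 1.08 and 1.07 in 300–800 nt strands but -1.24 and -0.64 in 100–600 nt strands, a difference of 2.01 (SE 0.39, adjusted p 0.0061 in limma). The highest probe of the locus, in fragment 67478, differed by 1.63 (SE 0.37, adjusted p 0.014 in limma). The others were offset 80 of fragment 67482 and offset 1120 of fragment 67483. Both lie between the RefSeq starts of Emd and Rpl10, and whether they lie within a gene was not analysed. Their means were 1.16 and 1.17 in 300–800 nt strands and -0.15 each in 100–600 nt strands. At offset 70 of fragment 67448 the means were -0.45 and -1.78, and with median centring 0.83 and -2.55, so the sign of the 300–800 nt value and the size of the difference depended on the normalisation.

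Of the 5 lower differences 4 lay on the gene side and 1 between the promoters. The largest was that of offset 4290 of fragment 67463, the lowest 300–800 nt probe, at -2.49 (SE 0.37, adjusted p 0.0017 in limma). With median centring its direction turned, to 0.69 (adjusted p 0.43 in limma). Offset 230 of fragment 67470, between the promoter sites, differed by -1.30 (SE 0.38, adjusted p 0.046 in limma), and with median centring by 0.44, the other way (adjusted p 0.66 in limma). Offset 170 of fragment 67456 had 0.75 and 1.14 in 100–600 nt strands against -0.56 and -0.60 in 300–800 nt strands. Offset 560 of fragment 67452 and offset 560 of fragment 67461 had means of 0.31 and 0.06 in 100–600 nt strands and of -1.08 and -1.29 in 300–800 nt strands. With normexp limma called 0 higher and 0 lower, where 10 and 19 had an unadjusted p under 0.05. Of all 15478 probes tested it then called 0 higher and 1 lower. With median centring it called 12 higher and 0 lower, the latter with 5 at an unadjusted p under 0.05. Of all probes tested it then called 6.11% higher and 1.16% lower.

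**Figure D4:**
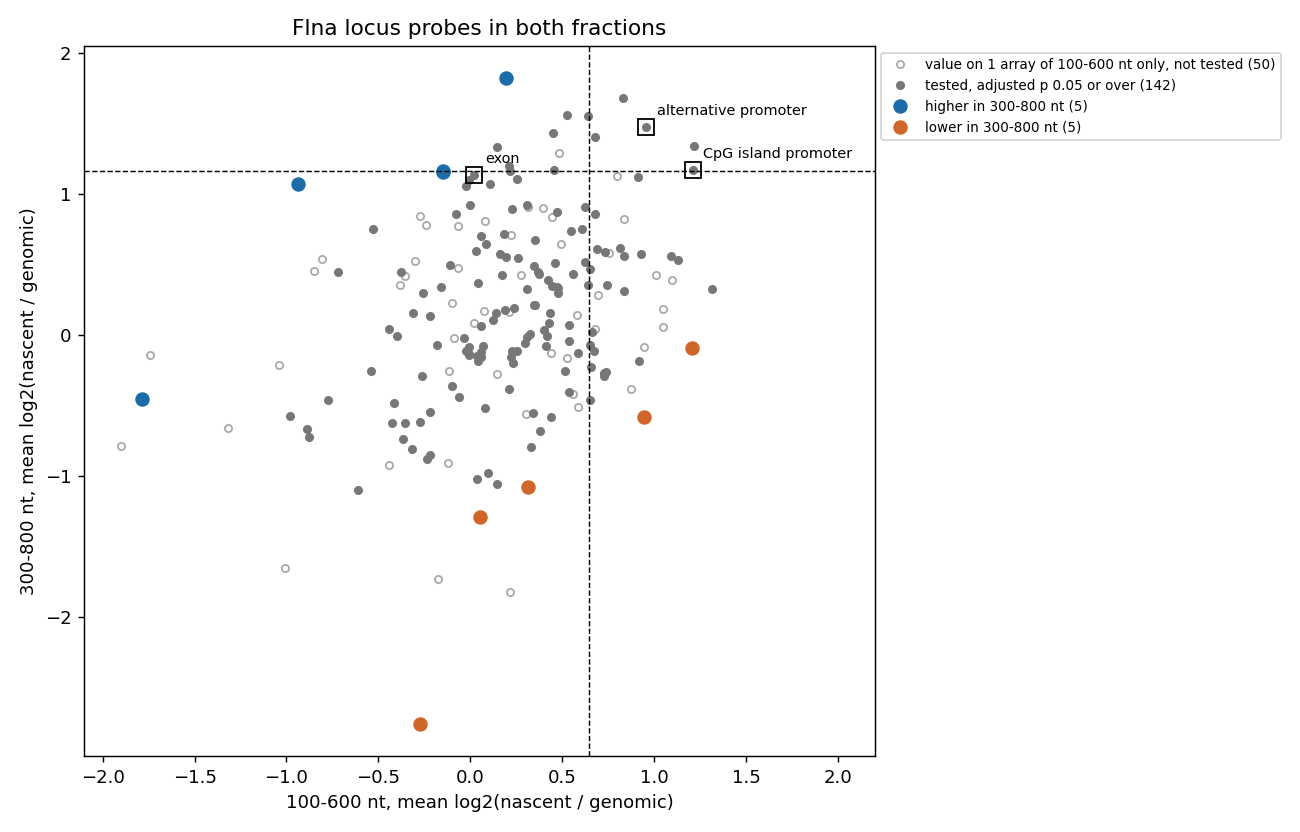
Mean log2 ratio of 100–600 nt strands (x axis) against that of 300–800 nt strands (y axis) for the 202 locus probes with a value in both, with dashed lines at the 0.95 quantiles. Large coloured points are the 5 probes higher and the 5 lower in 300–800 nt strands, open points were not tested, and squares mark the listed probes. Both promoter probes lie in the upper right corner, and the exon probe lies just under the horizontal line.

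Outside the locus the study lists 147 further probes at its sites. In the 300–800 nt fraction they ran from 1.03 to 2.90 with a median of 1.53, and 5 of them were lower than the CpG island promoter probe and 63 lower than the alternative promoter probe of Flna. In the 100–600 nt fraction they ran from -2.85 to 2.12 with a median of 0.41, and 126 and 116 of them were lower than these. In the 300–800 nt fraction the CpG island promoter probe was therefore near the low end of the list, and the alternative promoter probe a little under its median. Both were in the upper part in the 100–600 nt fraction. The study drew its list from 300–800 nt arrays, so low values of that fraction are left out of it. Among 36 other listed promoter sites, the 2 whose ratios on the 4 arrays were nearest to the CpG island promoter probe were those of Prrg3 (Euclidean distance 0.33) and Chd1l (0.64). Those nearest to the alternative promoter probe were Atp2b3 (0.31), 2610030H06Rik (0.39) and F8a (0.70). All 5 named are listed with a CpG island, which the alternative promoter of Flna is not. How many of the 36 are was not counted here, and the study places most of its promoter ORIs at CpG islands. The 5 are therefore not set apart by it.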

How the data were processed

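Nascent strands of 2 size fractions were measured on 4 two-colour Agilent arrays, 2 per fraction. Signal intensities of both dyes were deposited per spot as the software extracted them: with Feature Extraction 7.5.1 for 100–600 nt strands (background-subtracted and spatially detrended, no dye normalisation) and 9.5.3.1 for 300–800 nt strands (background-subtracted and dye-normalised), where a log10 ratio of Cy5 over Cy3 was also deposited. The authors' own normalisation and ACME output were not used here.

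Log2 ratios of nascent over genomic processed signal were computed after leaving out control spots and spots marked as non-uniform, outliers, not found or set aside by hand. Saturated spots were kept. Loess within each array (limma 3.58.1, R 4.3.3) was followed by averaging over repeated spots. A fraction's value is the mean of its arrays with a value. A difference on a log2 scale after loess is relative to probes of the same brightness.

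ACME was rewritten in Python 3.11.15 (numpy 2.4.6, scipy 1.17.1, pandas 2.3.3) with a window of 800 bp, a chi-square p under 0.005, at least 2 probes, a mean in the window over the 75th percentile, and a central probe that is itself positive. Tested on simulated data, ACME found 135 of 200 planted sites. Among 15478 simulated probes limma found 163 of 200 with a shift of 2 (log2), with 7 false calls, and 200 of 200 with a shift of 3, with 9 false calls. The noise for limma was drawn from its own fitted variance, alike for all samples. These limma counts therefore do not measure errors in the real data. P-values were adjusted over all probes by the Benjamini-Hochberg method and are two-sided. Precision is limited by the number of arrays.

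Exact positions follow from the study's listed probes for 577 probes in 117 of 10582 fragments, 14 of them at the locus, and other distances are estimates. The probes named were the 3 listed ones, the highest and lowest between the promoters, the 10 highest and 5 lowest of each fraction and those that differed between the fractions, and of those past the test against genomic DNA only some are named. Probes and lists were chosen with earlier results of these data known, and the stretches bounded by the exon probe were set after their values were seen. Alternatives were median centring, normexp with an offset of 50 (on median signals for 300–800 nt strands), marked spots kept, dim spots left out, a lowess on G+C, other quantiles, windows and tests, and leaving out each array. One further site near in profile is not reported here.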

Additional observations from a re-analysis of the deposited data

Results flagged for a closer look

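At 10 of the 152 locus probes tested, the ratio of nascent over genomic DNA differed between the size fractions by limma's test of the difference itself at an adjusted p under 0.05. It was higher in 300–800 nt strands at 5 and lower at 5, where 4.82% and 2.2% of all probes tested were called. Fraction, dye, array print, software and scan changed together and cannot be told apart. With 2 arrays a fraction, no test for a single array far from the others was possible.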

How the results depend on the processing

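Of 198 recomputed values 136 stayed within the spread of the arrays, or within 1.5 times for counts. All values below are log2 ratios or counts of locus probes. For 300–800 nt strands, median centring gave 1.08 at the CpG island promoter probe, 1.62 at the alternative promoter probe, 2.28 at the exon probe, a median of 0.96 between the promoter probes, 0.54 for the alternative minus the CpG island promoter probe, 0.39 for the mean of both minus that median, a locus median of 0.47, 23 probes above the 0.95 quantile and 13 in ACME. Normexp gave 0.70, 1.30 and 1.07 at the 3 probes, a lowest ratio between the promoters of -0.086, a median of 0.46, differences of 0.60 and 0.54 and 7 probes in ACME. The G+C lowess gave 1.12 at the CpG island promoter probe, 0.99 at the exon probe, a lowest ratio of -0.39, a median of 0.44 and differences of 0.40 and 0.88. The software's own log ratio gave 0.98 and 2.18 at these probes, a lowest ratio of -0.23, a median of 0.86, differences of 0.54 and 0.39 and a locus median of 0.37. A quantile of 0.90 left 29 probes above it and one of 0.99 left 2. ACME called 6 with a window of 400 bp, 0 with a p under 0.001 and 0 with Fisher's exact test. For 100–600 nt strands the mean of both promoter probes minus the median between them was 0.36 with median centring and 0.29 with normexp, which put the CpG island promoter probe at 0.35. The 0.99 quantile left 13 probes above it, and ACME called 20 with a p under 0.001 and 3 with Fisher's exact test. The cause of these shifts was not tested.

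Leaving out 1 array at a time, the lowest 300–800 nt ratio between the promoters ranged from -0.172 to -0.130. For 100–600 nt strands the locus median ranged from 0.215 to 0.292, the probes above the quantile from 16 without replicate 2 to 34 without replicate 1, and ACME calls from 9 to 25. The alternative minus the CpG island promoter probe ranged from -1.163 to 0.654 there, so its direction rested on the array kept. From both arrays it was -0.25 in the main setting, but 0.27 with median centring and 0.66 with normexp. Its direction thus turned with these settings too, although both values counted as within the spread. With marked spots kept, dim spots left out or the G+C lowess it stayed below 0.

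Of probes that differed between the fractions, limma called 12 higher and 0 lower with median centring, against 6.11% and 1.16% of all probes. With normexp it called 0 and 0, against 0 and 1 of all 15478. With marked spots kept it called 2 and 4 of 204 tested, against 2.55% and 1.1% of all. After the G+C lowess it called 11 and 5, against 6.58% and 3.19% of all. An adjusted p under 0.10 gave 10 and 10, against 7.77% and 4.34% of all. At an unadjusted p under 0.05 there were 5 lower with median centring, and 10 higher and 19 lower with normexp. Taking the 4 arrays as 4 samples gave 27 and 30, against 18.9% and 16.2% of all probes. With the replicate number as a replicate block the counts were 28 and 27, against 20.6% and 17.1% of all. Deviations of same-numbered arrays did not go together, however (correlation -0.0097). Against genomic DNA, 100–600 nt strands had 5 higher and 3 lower with normexp, where 0.368% and 3.11% of all probes were called. With 4 samples 44 were higher (11.8% of all), and at an adjusted p under 0.10 36 were (7.36% of all). With marked spots kept 13 were lower (7.46% of all). Without either 100–600 nt array no residual degree of freedom was left for a test, and the slide as a random block could not be fitted. The dimness of the CpG island promoter probe and the single spot per probe on the 100–600 nt arrays limit what can be said of its height there.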
